A study of Mus musculus with 24 samples.

Results

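The genes described here present antigen through major histocompatibility complex (MHC) class II, and their RNA was measured in the colon of mice given a tumor-inducing protocol and fed a low-fat diet (LFD) or a high-fat diet (HFD). The 9 members are H2-Aa, H2-Ab1, H2-Eb1, Cd74, H2-DMa, H2-DMb1, H2-Oa, H2-Ob and Ciita, of 45616 gene names on the array. They were found by the symbols of the accessions that the probes carry, which gave 14 of 56605 probes. The choice used symbols and not measured values.

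MHC class II proteins carry peptides from the endosomes of antigen-presenting cells to the surface, where CD4+ T cells read them. B cells, dendritic cells and macrophages make them all the time or on activation, and interferon-gamma turns them on in other cells, the colonic epithelium among them. H2-Aa and H2-Ab1 encode the alpha and beta chain of I-A, and H2-Eb1 the beta chain of I-E. Cd74, the invariant chain, fills the groove until the acidic endosome is reached. H2-DM (H2-DMa and H2-DMb1) then swaps the remnant of Cd74 for a peptide, and H2-O (H2-Oa and H2-Ob), made mostly in B cells, holds H2-DM back. Ciita is the coactivator that switches on this set of genes. C57BL/6 mice lack a working I-E alpha gene, H2-Ea, and so show no I-E on their cells, and H2-Ea is not analysed here.

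The colon RNA of male (M), female (F) and ovariectomized female (F(OVX)) C57BL/6J mice was hybridized to 24 Agilent 1-color arrays, with 4 arrays in each of 6 groups named by sex or surgery and diet, such as M + LFD or F(OVX) + HFD. The mice came at 7 weeks of age, had 1 week to adapt, and were then operated on and left to recover for 14 days. The F(OVX) mice had their ovaries removed, and the M and F mice underwent sham surgery. LFD held 10 kcal% fat and HFD 45 kcal% fat, and each was fed for 14 weeks. All 6 groups, the 3 on LFD included, received the colon carcinogen azoxymethane (AOM, 10 mg/kg) and then drank dextran sulfate sodium (DSS, 1.5%) in 3 cycles, which injures the colonic epithelium. They were killed 75 days after AOM, and no group had an untreated colon. Per the methods, the animals for the arrays were those closest to the mean body weight of their group. The arrays read whole colon tissue, in which fewer cells of a type and less RNA per cell cannot be told apart. The slides separated the sexes and the surgery, and on each slide LFD filled row 1 and HFD row 2, so that sex or surgery cannot be told apart from the slide, nor diet from the row. The replicate number was the column of the slide.

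The share of probes well above background ranged from 40.5% to 61.9% over the arrays, and was lowest on F(OVX) + LFD replicate 3 (40.5%) and F + HFD replicate 2 (43.6%). Hoxb13, which the distal colon expresses, was 2.18 and 5.04 (log2 signal) on M + LFD replicates 1 and 2 and at least 12.58 on the other 22 arrays. Epithelial markers (Epcam, Krt8 and 8 others) and smooth muscle markers (Acta2, Myh11 and 4 others) were well above background on all 24 arrays. Among the markers of antigen-presenting cells, Ms4a1, Cd79b, Itgax and Adgre1 were well above background on all 24 arrays, Pax5 on 1, and Zbtb46 and Xcr1 on none. All values below are log2 of the processed signal after quantile normalization, and a difference is HFD minus LFD on that scale unless another is named.

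The promoters of the class II genes share an arrangement of short DNA motifs through which Ciita acts, and the stretches that hold it are shown because the members varied together across the arrays. RFX proteins bind the X box and NF-Y binds the Y box, an inverted CCAAT. The 250 bases before the start of each gene were searched on both strands for an X core GNAAC followed after 20 to 30 letters by a Y core GATTGG. These cores and this gap were set with the sequences in view. Sequences of 6 members were read from RefSeq (GRCm38.p6), and 5 of them held the pair, against 181 of 32851 promoter windows (0.551%). The X core alone was in 79.6% and the Y core alone in 14.6% of all windows. In the stretches below, written 5′ to 3′ in the direction of transcription, capitals mark the X core and then the Y core.
H2-Aa: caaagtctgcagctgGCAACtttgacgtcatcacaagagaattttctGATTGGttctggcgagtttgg
H2-Eb1: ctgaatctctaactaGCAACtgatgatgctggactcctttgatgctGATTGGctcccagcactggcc
H2-DMb1: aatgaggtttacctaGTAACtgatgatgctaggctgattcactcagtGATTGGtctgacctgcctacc
H2-Oa: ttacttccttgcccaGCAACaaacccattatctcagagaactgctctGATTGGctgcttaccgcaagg
H2-Ob: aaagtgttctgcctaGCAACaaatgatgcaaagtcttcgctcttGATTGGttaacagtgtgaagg

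The H2-Aa stretch lies at chr17:34287852-34287919 on the minus strand. The others lie on the plus strand, H2-Eb1 at chr17:34305761-34305827, H2-DMb1 at chr17:34153082-34153149, H2-Oa at chr17:34092288-34092355 and H2-Ob at chr17:34238803-34238867. The gap between the cores was 27 letters in H2-Aa, H2-DMb1 and H2-Oa, 26 in H2-Eb1 and 24 in H2-Ob. The X core began between 76 and 94 bases before the start of the gene. Neither of the 2 H2-DMa windows held the pair. A match here describes letters and does not show binding. H2-Ab1, Cd74 and Ciita are not shown.

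The brightest probe of each of the 9 members was well above background on all 24 arrays, so every member was tested in every comparison. On HFD, mean levels were lower for 7 of 9 members in M, 7 of 9 in F and 9 of 9 in F(OVX), but of the 27 diet differences 1 was counted as changed, that of H2-DMa in M. The members that were higher on HFD in M and F were H2-Oa and H2-Ob, the chains of the H2-DM inhibitor, and neither was counted as changed. The LFD and HFD arrays overlapped for all 9 members in M, F and F(OVX), where 0.912%, 0.706% and 0.812% of all genes had every HFD array below every LFD array. Counting a gene as changed took an unadjusted p under 0.05 together with a fold change of 1.5 or more, the thresholds that the methods give. By this rule 4.3% of 20516 genes were counted in M, 1.2% of 22085 in F and 2.19% of 19211 in F(OVX), and 0 genes in each at a Benjamini-Hochberg adjusted p under 0.05 (limma). At an unadjusted p under 0.05 alone, limma gave 1251, 643 and 709 genes.

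**Figure D1:**
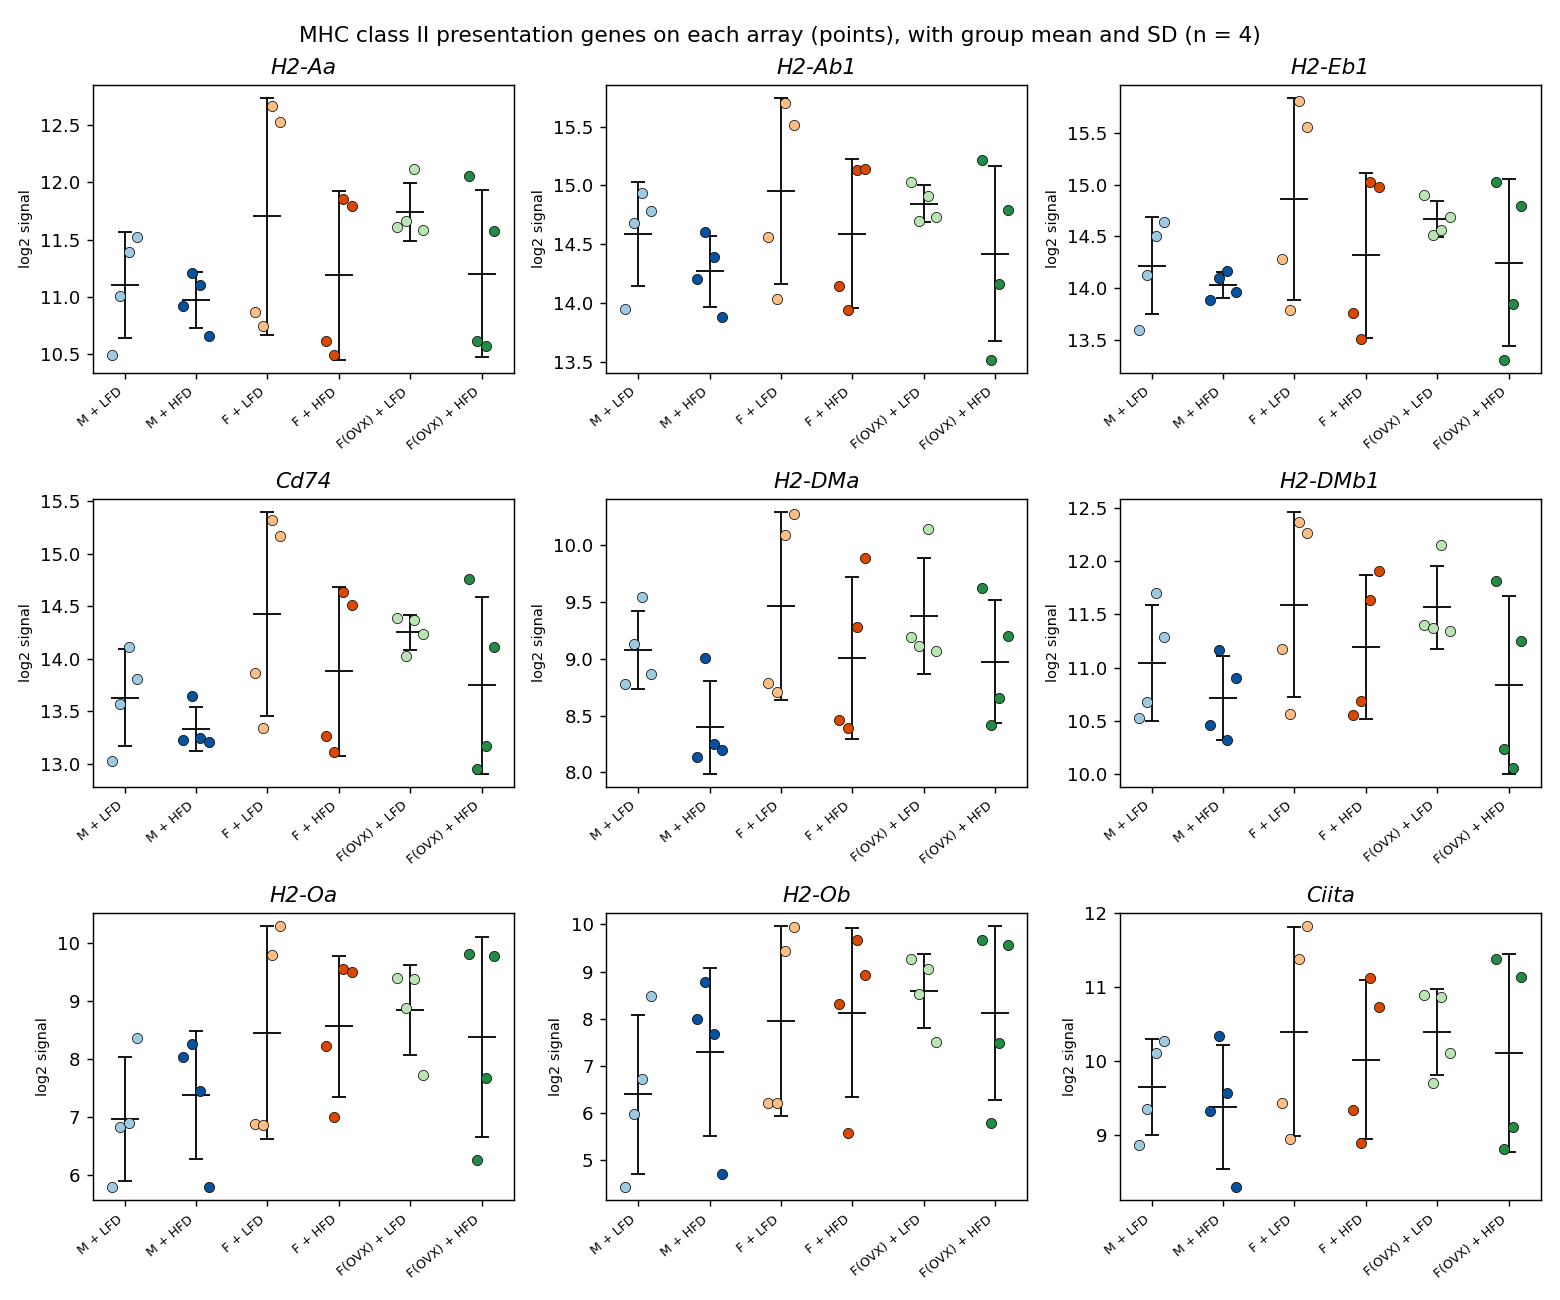
Log2 signal (y axis) of the 9 members on every array, by group (x axis), where points are arrays and the black mark and bar are the group mean and SD (n = 4). The arrays of both diets overlap in every panel, and H2-Ob spans 4.42 to 9.95 whereas H2-Ab1 spans 13.52 to 15.70.

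In males, H2-DMa, the alpha chain of the peptide editor, was counted as lower on HFD, and the other 8 members were not counted. Its level was 8.78, 9.13, 9.54 and 8.86 on the M + LFD arrays and 8.14, 9.0, 8.25 and 8.19 on the M + HFD arrays. Of the M + HFD arrays, 3 lay below every M + LFD array, and replicate 2 lay among them. The difference was -0.68 ± 0.25 (SE), which is 1.60-fold lower, at an unadjusted p of 0.0237 and an adjusted p of 0.800 (limma, 20516 genes). The exact permutation test over the 70 assignments of the diets gave p = 0.0857 (two-sided, smallest possible 0.0286). So 1 of 9 members was counted as lower in M, beside 1.8% of all genes, and 0 as higher, beside 2.5%. The call was lost without M + LFD replicate 3 (p = 0.0679, limma) and without M + HFD replicate 1, 3 or 4 (p = 0.0638, 0.0582 and 0.0596, limma), and the exact permutation test did not pass 0.05. It was also lost with 1 fit of all 24 arrays (unadjusted p 0.0960, limma) and with normexp background correction, where the difference was -0.55 and so under 1.5-fold.

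H2-DMb1, its partner chain, was 10.53, 10.67, 11.70 and 11.28 on M + LFD and 10.46, 11.16, 10.32 and 10.90 on M + HFD. The arrays of the diets interleaved, and the difference of -0.33 ± 0.30 (SE) was within that spread (limma, unadjusted p 0.299). The I-A and I-E chains and Cd74 differed less between the diets in M, by -0.13 ± 0.24 for H2-Aa, -0.32 ± 0.25 for H2-Ab1, -0.19 ± 0.23 for H2-Eb1 and -0.30 ± 0.24 for Cd74. H2-Ab1 was 13.95, 14.68, 14.93 and 14.79 on M + LFD and 14.21, 14.60, 14.39 and 13.88 on M + HFD. Its lowest array was M + HFD replicate 4, with M + LFD replicate 1 next to it.

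H2-Ob, the beta chain of the inhibitor H2-O, had the widest spread in M. It was 4.42, 5.97, 6.71 and 8.48 on M + LFD and 7.99, 8.78, 7.68 and 4.70 on M + HFD. Low arrays occurred on both diets, M + LFD replicate 1 and M + HFD replicate 4, and the difference of 0.89 ± 1.04 (SE) had an unadjusted p of 0.414 (limma). H2-Oa differed by 0.41 ± 0.66 (unadjusted p 0.543, limma). The coactivator Ciita was 8.87, 9.36, 10.11 and 10.27 on M + LFD and 9.33, 10.33, 9.57 and 8.30 on M + HFD, a difference of -0.27 ± 0.46.

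M + LFD replicates 1 and 2, the arrays with little Hoxb13, were the lowest pair of their group for 8 of the 9 members, all but H2-DMa. Without them the median difference over the members in M went from -0.27 to -0.59, and 4 members were counted as lower on HFD, H2-DMa at -0.80, H2-DMb1 at -0.78, Cd74 at -0.63 and H2-Ab1 at -0.59. H2-Oa and H2-Ob then turned to -0.25 and -0.31, and neither was counted. This leaves 2 arrays in M + LFD, and 868 of all genes were then counted in either direction, beside 882 with all arrays. With all arrays, the median difference over all genes tested was 0.010 in M, where 48.2% of genes had a lower mean on HFD.

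**Figure D2:**
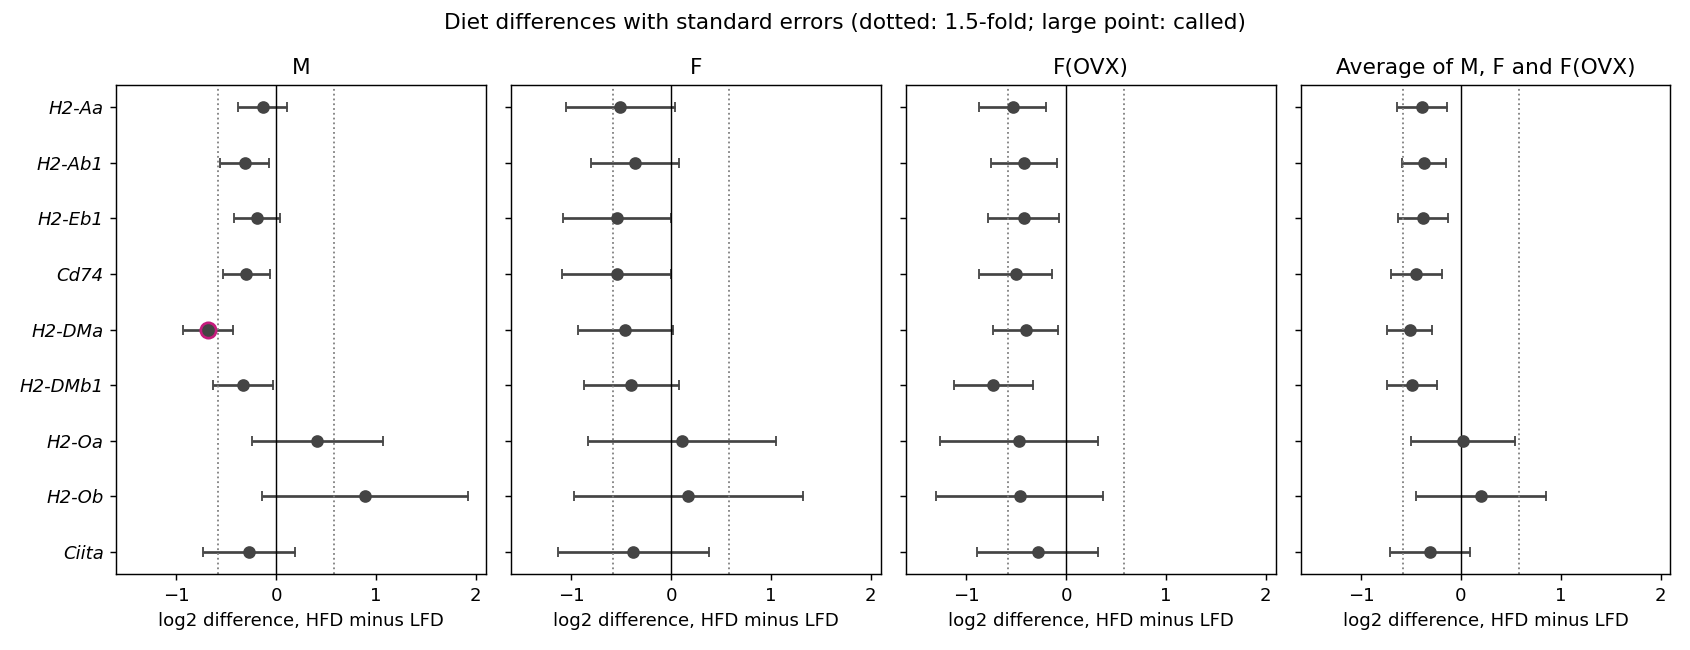
Differences between HFD and LFD (x axis, log2 with standard error) for the 9 members (y axis) in M, F and F(OVX) and averaged over them, with dotted lines at 1.5-fold. The large point is H2-DMa in M (-0.68), counted as changed, and H2-Oa and H2-Ob have the widest errors in every panel.

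In females, 0 of 9 members were counted as changed, beside 0.398% of all genes counted as higher and 0.797% as lower. H2-Aa, the alpha chain of I-A, was 10.87, 10.75, 12.66 and 12.52 on F + LFD and 10.62, 10.49, 11.86 and 11.80 on F + HFD. On both diets replicates 3 and 4 were high and replicates 1 and 2 low, and HFD was below LFD within each replicate number. The difference was -0.51 ± 0.55 (SE), with an unadjusted p of 0.376 (limma). Cd74 was 13.87, 13.34, 15.32 and 15.17 on F + LFD and 13.27, 13.11, 14.64 and 14.51 on F + HFD, with the same arrays high and low and a difference of -0.55 ± 0.54 (1.46-fold lower, unadjusted p 0.344, limma).

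The labels do not pair LFD with HFD arrays, and the replicate number was the slide column. In F, arrays with the same number deviated together from their group means over all genes (r = 0.28, 0.45, 0.58 and 0.26). A block by replicate number was thus picked from these same values, and its p-values are given as a description. Blocked by replicate number, 5 of 9 members had an unadjusted p under 0.05 (limma), all lower on HFD, against 3.38% of 22085 genes that were so. These were Cd74 (unadjusted p 0.00706), H2-Eb1 (unadjusted p 0.00708), H2-Aa (unadjusted p 0.0172), H2-DMa (unadjusted p 0.0173) and H2-Ab1 (unadjusted p 0.0326, limma with the block), each at an adjusted p of 0.666 or more. None was counted as changed, since each fold change was below 1.5. The members varied together, so the 5 are not separate results. H2-Aa, H2-Ab1, H2-Eb1, Cd74, H2-DMa and Ciita were lower on HFD in 4 of 4 same-numbered comparisons and H2-DMb1 in 3 of 4. H2-Oa and H2-Ob were lower in 2 of 4.

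**Figure D3:**
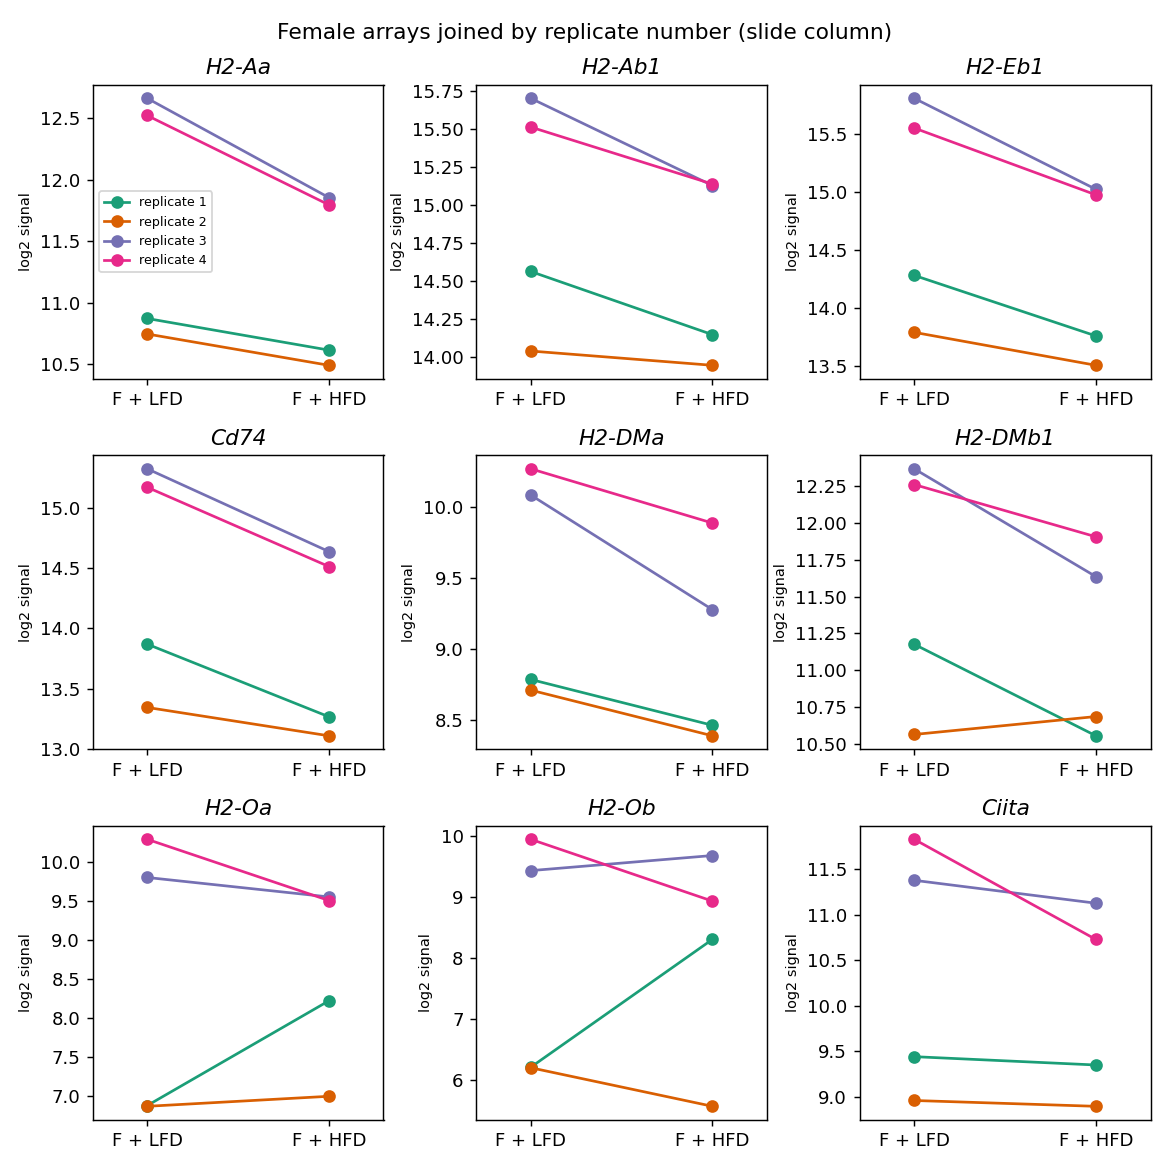
Log2 signal (y axis) of the 9 members on the female arrays by diet (x axis), with lines joining arrays of the same replicate number. For H2-Aa, replicates 3 and 4 lie at 12.66 and 12.52 on LFD and replicates 1 and 2 at 10.87 and 10.75, and all 4 lines fall toward HFD.

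The regulators and editors in F followed the same order of arrays. Ciita was 9.44, 8.96, 11.38 and 11.83 on F + LFD and 9.35, 8.89, 11.12 and 10.73 on F + HFD, a difference of -0.38 ± 0.76 (SE). H2-DMb1 differed by -0.40 ± 0.48 and H2-DMa by -0.46 ± 0.47. H2-Ob was 6.21, 6.20, 9.43 and 9.95 on F + LFD and 8.30, 5.56, 9.68 and 8.93 on F + HFD. Replicates 3 and 4 were again the high arrays on LFD, whereas on HFD replicate 1 lay near them and replicate 2 far below, and the difference was 0.17 ± 1.15.

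In ovariectomized females, all 9 members had lower means on HFD and 0 were counted as changed, beside 1.02% of all genes counted as lower and 1.18% as higher. H2-DMb1 had the largest difference of the members. It was 11.40, 11.37, 12.15 and 11.34 on F(OVX) + LFD and 11.81, 10.24, 10.05 and 11.25 on F(OVX) + HFD. Of the HFD arrays 3 lay below every LFD array, and replicate 1 lay above 3 of the LFD arrays. The difference was -0.73 ± 0.39 (SE, 1.66-fold lower), with an unadjusted p of 0.0977 (limma).

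H2-Ab1 in F(OVX) was 15.03, 14.70, 14.91 and 14.73 on LFD and 15.21, 13.52, 14.16 and 14.79 on HFD. The LFD arrays were close together (SD 0.16) and the HFD arrays lay on both sides of them (SD 0.74), so the difference of -0.42 ± 0.33 was within their spread (limma, unadjusted p 0.232). H2-Oa, the alpha chain of H2-O, was 9.40, 8.89, 9.38 and 7.73 on LFD and 9.81, 6.25, 7.68 and 9.78 on HFD. Replicates 1 and 4 on HFD lay above all LFD arrays and replicates 2 and 3 below all of them. The differences of H2-Oa, H2-Ob and Ciita were -0.47 ± 0.79, -0.47 ± 0.83 and -0.28 ± 0.61.

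Single arrays decided the size of the diet difference in F(OVX). Without F(OVX) + HFD replicate 1 the median over the members went from -0.47 to -0.82, and H2-Aa, H2-Ab1, Cd74 and H2-DMb1 were counted as lower on HFD. Of all genes, 688 were then counted in either direction, beside 421 with all arrays. Without F(OVX) + HFD replicate 2 the median was -0.12 and 0 members were counted, and H2-Oa, H2-Ob and Ciita turned to 0.24, 0.31 and 0.15. The median over all genes tested was 0.011 in F(OVX) and -0.0045 in F, and 47.8% and 50.8% of genes had lower means on HFD.

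The diet effect did not differ detectably between the sexes or with ovariectomy for any member. The largest difference between diet effects was that of H2-Ob between M and F(OVX), at 1.36 ± 1.60 (SE), with an unadjusted p of 0.406 (limma, 24 arrays) and an exact permutation p of 0.383. Over the 27 such differences, 0 were counted as changed, beside 2.95% of all genes for M against F, 1.5% for F(OVX) against F and 6.33% for M against F(OVX). The exact permutation p-values lay between 0.383 and 0.984. The effect of H2-DMa, called in M, differed from that in F by -0.22 ± 0.55 and from that in F(OVX) by -0.28 ± 0.55.

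Averaged over M, F and F(OVX), the diet effect was lower on HFD for 7 of 9 members and was counted for none, beside 0.572% of all genes counted as lower and 0.201% as higher. H2-DMa came nearest, with -0.51 ± 0.23 (SE, 1.43-fold lower), an unadjusted p of 0.0339, an adjusted p of 0.984 (limma) and an exact permutation p of 0.0362. It was lower on HFD in 10 of 12 same-numbered comparisons, which match arrays by slide column only, so this count is a description. Without F + LFD replicate 2 or F(OVX) + HFD replicate 1, H2-DMa and H2-DMb1 were counted as lower on HFD, and H2-DMa alone was when F + HFD replicate 4 or F + LFD replicate 1 was left out. Of all genes, 190 to 268 were counted in either direction in these fits. H2-DMb1 averaged -0.49 ± 0.25 and Cd74 -0.45 ± 0.25. H2-Aa, H2-Ab1 and H2-Eb1 averaged -0.39 ± 0.25, -0.37 ± 0.22 and -0.38 ± 0.25. H2-Oa was at 0.019 ± 0.52 and H2-Ob at 0.20 ± 0.65. With the replicate block, 6 members (all but H2-Oa, H2-Ob and Ciita) had an unadjusted p under 0.05 (limma), lower on HFD, against 3.08% of all genes, and none reached 1.5-fold. This block also paired the M and F(OVX) arrays, whose numbers were not taken as pairs. Without it H2-DMa alone had an unadjusted p under 0.05 (limma). The members varied together, so the 6 are not separate results. The median over the members was -0.38, and that over all 22383 genes tested was 0.0058.

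All 9 members had lower means in males than in females on both diets, without any being counted as changed. The median over the members was -0.64 on LFD and -0.55 on HFD (M minus F), beside -0.014 and 0.0064 over all genes tested. On LFD 2.2% and on HFD 3.13% of all genes were counted as lower in M. Cd74 was 13.63 ± 0.46 (SD, n = 4) in M + LFD and 14.43 ± 0.97 in F + LFD, a difference of -0.80 ± 0.44 (SE, limma, unadjusted p 0.0854). The largest were those of H2-Ob and H2-Oa on LFD, at -1.55 ± 1.13 and -1.49 ± 0.90. Without M + LFD replicates 1 and 2 the median on LFD was -0.26. Without F + LFD replicate 2, 3 members were counted as lower in M on LFD, and without replicate 1, 1 member. Of all genes, 1963 were counted in either direction without replicate 2 and 1702 without replicate 1. F(OVX) against F had medians of -0.024 on LFD and -0.073 on HFD, and 0 members were counted on either diet, beside 1.65% and 1.97% of all genes. The LFD median turned to 0.10 when arrays were scaled to their 75th percentile. Among the cell type markers, C1qa and C1qb of macrophages (-0.76 ± 0.36 SE and -0.67 ± 0.30 SE) were counted as lower in M + LFD than in F + LFD. Siglech of plasmacytoid dendritic cells (0.94 ± 0.23 SE) and Cd4 (0.73 ± 0.22 SE) were counted as higher, and Siglech also on HFD (0.71 ± 0.23 SE). Both lists mostly went the other way. On LFD, 5 of 7 dendritic cell genes tested and 8 of 10 T cell genes were lower in M. On HFD, 4 of 6 dendritic cell genes tested were. All 8 B cell genes tested were lower in M on LFD (median -1.80), and 1 was counted. Of 4 genes tested of group 3 innate lymphoid cells, 1 was counted as higher in M on each diet. The part of these markers in the class II differences was not tested, and sex or surgery and slide cannot be told apart in any of them.

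Ordered by group mean, 7 members were lowest in M + HFD, and H2-Oa and H2-Ob in M + LFD. The highest mean was in F + LFD for 6 members and in F(OVX) + LFD for H2-Aa, H2-Oa and H2-Ob. Neighbours in this order overlapped in all 45 cases, with exact permutation p-values of 0.171 or more. Even the lowest and highest group overlapped for 8 of 9 members. The exception was H2-Aa, at 10.97 ± 0.24 (SD, n = 4) in M + HFD and 11.74 ± 0.25 in F(OVX) + LFD. The lowest and highest groups were picked by these same means, which favors a separation. The share of all genes whose lowest and highest groups did not overlap was not computed, so the exception is given as a description.

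The arrays of a group differed more in these genes than in most. The SD within groups was 0.56 for H2-Ab1, 0.58 for H2-DMa, 0.66 for Cd74, 1.03 for Ciita, 1.35 for H2-Oa and 1.70 for H2-Ob, beside a median of 0.30 over the 16830 genes, with or without a symbol, that were well above background on all arrays. Of these genes, 11.7% varied more than H2-Ab1 and 0.232% more than H2-Ob. From the lowest to the highest of the 24 arrays H2-Ab1 rose 4.55-fold, H2-DMa 4.37-fold, Ciita 11.5-fold, H2-Oa 22.9-fold and H2-Ob 46.2-fold. Differences between the 6 groups held 14.8% (Ciita) to 31.9% (H2-DMa) of the sum of squares of a member, beside a median of 25.2% over all these genes.

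The members rose and fell together across arrays. Over the 24 arrays, the 6 pairs among H2-Aa, H2-Ab1, H2-Eb1 and Cd74 correlated at r = 0.94 to 0.97, and after the group means were taken out at r = 0.94 to 0.97. H2-Oa and H2-Ob, the chains of 1 heterodimer, correlated at r = 0.97, and H2-DMa and H2-DMb1, also partners, at r = 0.90. The weakest of the 36 pairs was H2-DMa with H2-Ob, the editor with its inhibitor, at r = 0.62. These coefficients describe 24 arrays that share normalization, slides and tissue composition, and no p-value is given for them.

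**Figure D4:**
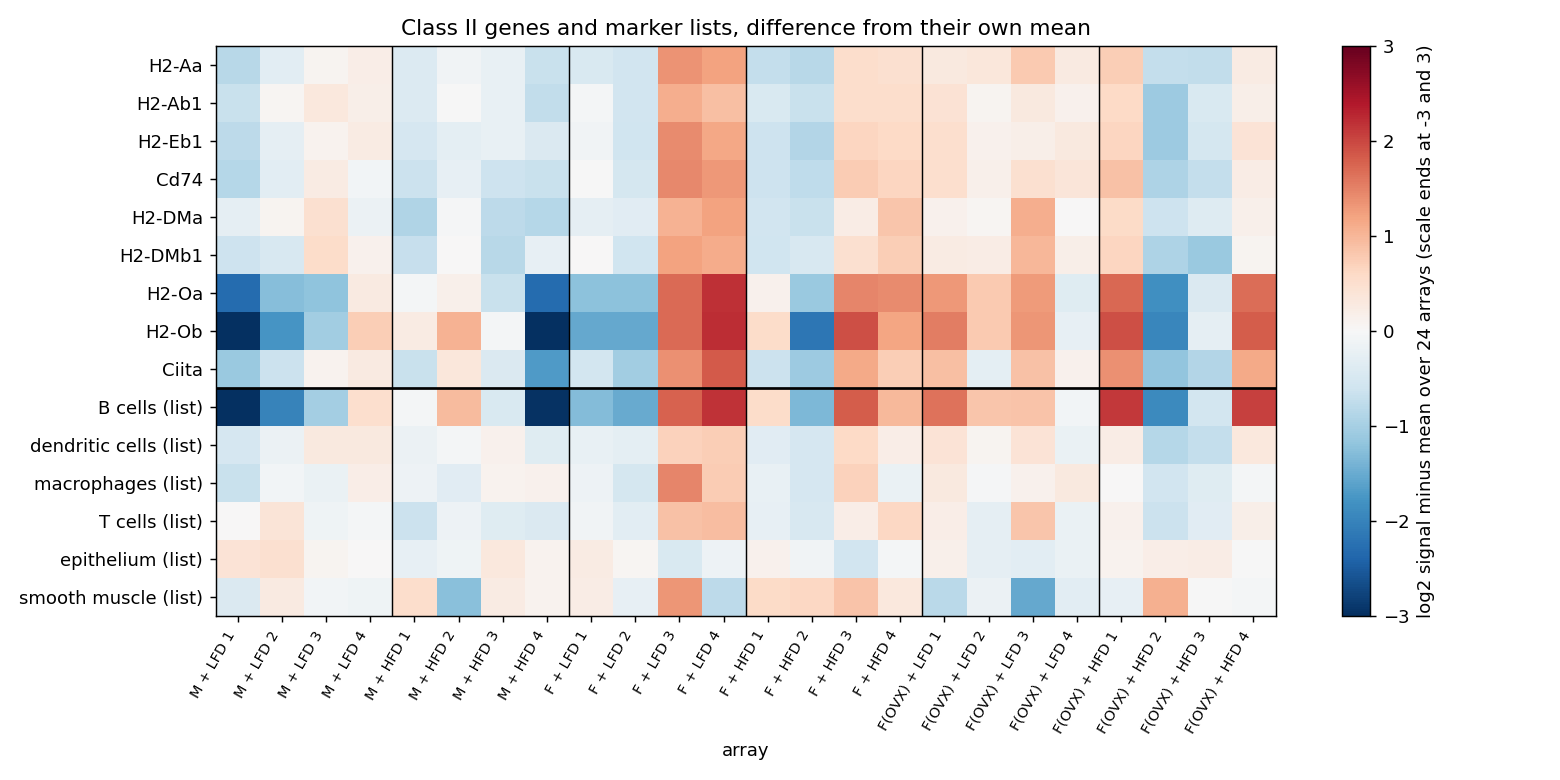
Log2 signal of the 9 members and mean level of 6 marker lists (rows) on the 24 arrays (columns), as the difference from the mean of the row. H2-Oa, H2-Ob and the B cell list share their lowest array, M + LFD replicate 1, where H2-Ob was 4.42, and their highest, F + LFD replicate 4, where it was 9.95.

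H2-Oa and H2-Ob followed the B cell markers (Ms4a1, Cd79a, Cd79b and 7 others). The mean level of the markers detected was lowest on M + LFD replicate 1 (4.02) and highest on F + LFD replicate 4 (9.24), the arrays on which H2-Ob was lowest and highest. Over 24 arrays H2-Ob correlated with this level at r = 0.99 and H2-Oa at r = 0.98, and after the group means were taken out at r = 0.99 and 0.97. In F(OVX) + HFD the B cell level was 9.19, 5.16, 6.52 and 9.11, and the H2-Ob level 9.67, 5.79, 7.48 and 9.55. Both were high on replicates 1 and 4 and low on 2. The B cell level ranged from 4.02 to 7.56 in M + LFD and from 4.09 to 8.02 in M + HFD, and its part in the diet differences was not tested.

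The I-A and I-E chains and Cd74 lay nearer to the dendritic cell markers. H2-Ab1 correlated at r = 0.91 with the dendritic cell level (Itgax, Flt3, Batf3 and 5 others detected), 0.82 with the T cell level, 0.78 with the B cell level and 0.77 with the macrophage level. After the group means were taken out, r was 0.92 for dendritic cells, 0.88 for B cells, 0.78 for T cells and 0.76 for macrophages. H2-DMa correlated most with the T cell level (r = 0.91), and at r = 0.65 with the interferon-gamma genes and 0.65 with the MHC class I genes, where H2-Ob was at -0.030 and -0.066. Against the epithelial level the 9 members had r between -0.60 and -0.41. In M the T cell level was 8.59, 8.95, 8.44 and 8.52 on LFD and 7.92, 8.42, 8.21 and 8.14 on HFD. It was lower on all M + HFD arrays than on every M + LFD array, but only narrowly. The highest M + HFD level was 8.42 and the lowest M + LFD level 8.44. The highest M + LFD levels, 8.59 and 8.95, were on the arrays with little Hoxb13. How often a list separates the diets in this way was not computed. The part of the T cell level in the H2-DMa difference was not tested.

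**Figure D5:**
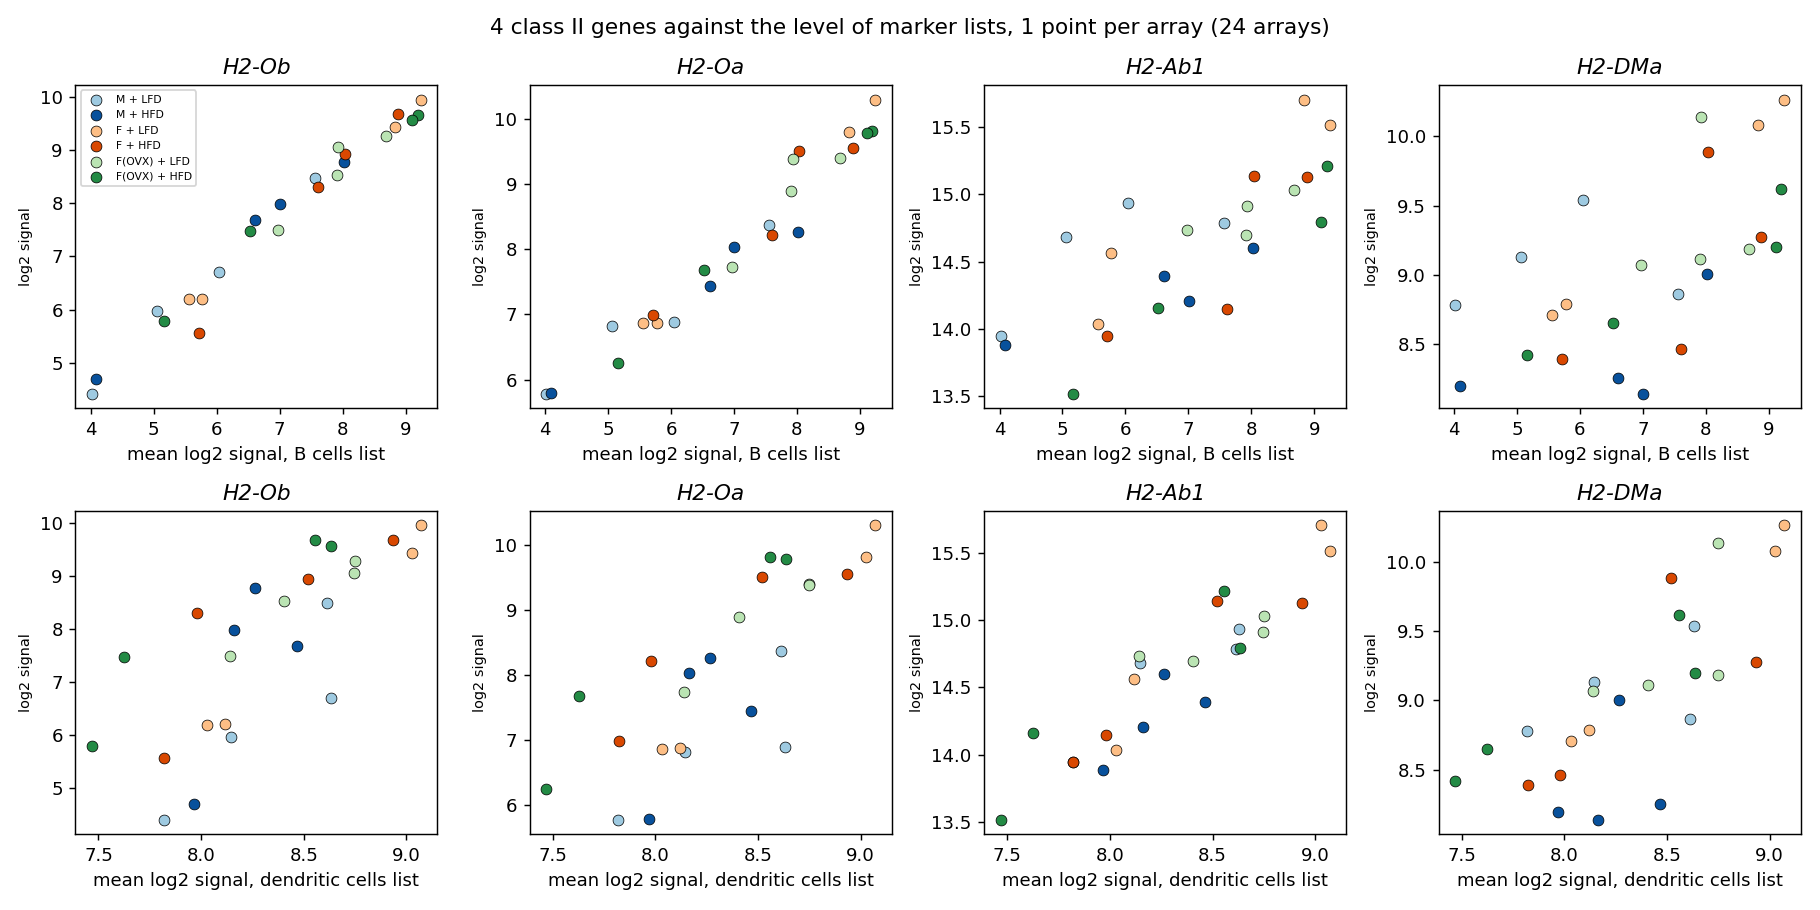
Log2 signal of H2-Ob, H2-Oa, H2-Ab1 and H2-DMa (y axes) against the mean log2 signal of the B cell list (upper row) and the dendritic cell list (lower row), with 1 point per array colored by group. H2-Ob and H2-Oa lie near a line against the B cell list (r = 0.99 and 0.98), and H2-DMa scatters widely there (r = 0.62).

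Genes without a symbol were ranked among the 16830 genes but are not named here. Of genes with a symbol outside the set, those most like H2-Ab1 over the 24 arrays were Arhgap45 (r = 0.92), Arl5c (0.92), Myo1g (0.91), Gimap3 (0.91), Sla (0.91), Coro1a (0.91), Zap70 (0.91), Itgax (0.91), Csprs (0.91) and Itga4 (0.90). Zap70 is a kinase of the T cell receptor and Itgax an integrin chain of dendritic cells. After the group means were taken out, the closest were Arl5c (0.95), Wdfy4 (0.94), which dendritic cells need for cross-presentation, Btla (0.93), Myo1g (0.93), Hcls1 (0.93), Arhgap45 (0.93), Itga4 (0.93), Cd72 (0.92), a B cell receptor for semaphorin, Gimap6 (0.92) and Arhgap25 (0.92). The members H2-Eb1 and Cd74 had a higher r with H2-Ab1 than any of these on both measures.

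Where a gene had several probes, they rose and fell together. The 4 probes of H2-Ab1 correlated with the brightest at r = 0.97 to 0.99, the other probe of Ciita at r = 0.97 and that of H2-Ob at r = 0.95. The dimmer probe of Ciita was well above background on 20 arrays and that of H2-Ob on 13. The diet differences of the 4 H2-Ab1 probes lay between -0.33 and -0.25 in M, -0.49 and -0.33 in F, and -0.60 and -0.42 in F(OVX), none of them counted.

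The factors that bind the class II promoter were not counted as changed by diet. Of 7 listed (Rfx5, Rfxap and Rfxank, the RFX subunits, Nfya, Nfyb and Nfyc, the NF-Y subunits, and Creb1), 6, 7 and 6 were tested in M, F and F(OVX), and 0 were counted. Rfxank differed by 0.24 ± 0.18 SE in M and Rfxap by -0.067 ± 0.23 SE. Their mean level had r between -0.12 and 0.063 with the 9 members over the arrays, where Ciita had r = 0.92 with H2-Ab1. Between slides on HFD, Nfya was counted as higher in M than in F (0.87 ± 0.41 SE, unadjusted p 0.0470, limma) and in F(OVX) than in F (0.96 ± 0.41 SE, unadjusted p 0.0297, limma).

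The other class II chains on the array, H2-Eb2 and H2-DMb2, were well above background on 20 and 19 arrays. H2-Eb2 was 3.11, 3.99, 5.10 and 6.89 on M + LFD and 6.15, 6.79, 5.85 and 4.95 on M + HFD, low where H2-Ob was low. It was well above background on 2 M + LFD and 4 M + HFD arrays, and so entered the test through the group in which it was higher. Its difference of 1.16 ± 0.76 SE is given as a description. The proteases and the thiol reductase of the endosome (Ctss, Ctsl, Ctsb, Ctsd, Lgmn, Ifi30) and Psap had 0 of 7 counted by diet in M, F and F(OVX). Lgmn, an asparagine endopeptidase that cuts Cd74, was counted as lower in F(OVX) + LFD than in F + LFD (-0.64 ± 0.25 SE, unadjusted p 0.0168, limma). Of the 4 genes tied to the turnover and surface clustering of class II (Marchf1, Marchf8, Cd9, Cd63), the tetraspanin Cd9 was counted as higher on HFD in M (0.77 ± 0.29 SE, unadjusted p 0.0284, limma). Its diet effect in M differed from that in F by 1.02 ± 0.39 SE (unadjusted p 0.0158) and from that in F(OVX) by 0.87 ± 0.39 SE (unadjusted p 0.0352, limma), and it was higher in M + HFD than in F + HFD (0.93 ± 0.27 SE). Of the co-stimulatory genes, Cd80, Cd86, Icosl and Cd274 were tested in M, F and F(OVX) and Cd40 in F alone, and 0 were counted by diet. Pdcd1lg2 was too dim to be tested by diet, and Cd80 was counted as lower in F(OVX) + LFD than in F + LFD (-0.62 ± 0.25 SE).

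In M, 5 MHC class I genes were counted as lower on HFD, as H2-DMa was. Ifng, which induces Ciita, was 6.01, 6.07, 5.77 and 4.60 on M + LFD and 3.79, 4.66, 3.98 and 4.67 on M + HFD. It was well above background on 4 M + LFD arrays but on 2 M + HFD arrays, so that it entered the test through the group in which it was higher, and its difference of -1.34 ± 0.36 SE is given as a description. Replicate 4 of M + LFD lay among the HFD arrays. Of 11 MHC class I genes, 5 were counted as lower on HFD in M, beside 1.8% of all genes. They were the peptide transporter Tap1 (-1.02 ± 0.38 SE), the class I coactivator Nlrc5 (-0.84 ± 0.31 SE), the immunoproteasome subunit Psmb8 (-0.83 ± 0.36 SE), H2-T23 (-0.70 ± 0.25 SE) and the heavy chain H2-K1 (-0.60 ± 0.21 SE). On M + LFD replicates 1 and 2, which had little Hoxb13, H2-T23 was 14.84 and 15.36, against 14.54 and 14.17 on replicates 3 and 4. H2-K1 was 16.40 and 16.58 on replicates 1 and 2, against 16.25 and 15.99. Tap1, Nlrc5 and Psmb8 were not highest on both of these arrays. Class I differences without these arrays are not given. The median difference over the class I list was -0.60 in M, -0.39 in F and -0.0085 in F(OVX), with 0 of 11 counted in F and in F(OVX). H2-T23 (-0.83 ± 0.29 SE) and H2-Q7 (-0.61 ± 0.27 SE) were counted in the difference between the diet effects of M and F(OVX), beside 6.33% of all genes. Their unadjusted p-values were 0.0100 and 0.0372 (limma). The M + LFD arrays with little Hoxb13 entered this difference too. No class II member was counted there. Nlrc5 was also counted as lower in M + HFD than in F + HFD, at -0.77 ± 0.33 SE.

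Markers of other cells moved with diet in places. In M, Cd3g, a chain of the T cell receptor complex, was counted as lower on HFD at -0.64 ± 0.23 SE (1 of 10 T cell genes). Cdx2, an intestinal transcription factor, was counted as lower at -1.77 ± 0.53 SE (1 of 10 epithelial genes). Both were highest in M + LFD on replicates 1 and 2, the arrays with little Hoxb13. Cdx2 was 14.23 and 14.07 on them and 13.44 and 12.75 on replicates 3 and 4. Cd3g was 7.95 and 8.34 on them and 7.69 and 7.88 on replicates 3 and 4. In F(OVX), Batf3 (1 of 6 dendritic cell genes tested), Mrc1 (1 of 10 macrophage genes) and Il7r (1 of 4 genes of group 3 innate lymphoid cells tested) were counted as lower on HFD, at -0.71 ± 0.25 SE, -0.67 ± 0.27 SE and -0.84 ± 0.33 SE. Of 6 smooth muscle genes 4 were counted as higher there, Des (1.25 ± 0.49 SE), Cnn1 (1.12 ± 0.40 SE), Actg2 (0.92 ± 0.34 SE) and Tagln (0.72 ± 0.32 SE). In F(OVX) the smooth muscle level was 12.21, 12.85, 11.49 and 12.72 on LFD and 12.78, 14.09, 13.01 and 12.96 on HFD. Within F(OVX) the list was highest on HFD replicate 2, on which H2-Aa, H2-Ab1, H2-Eb1, Cd74 and H2-Ob were low. It was lowest there on LFD replicate 3, on which H2-Aa, H2-DMa and H2-DMb1 were the highest of their group. Over all 24 arrays the list was highest on F + LFD replicate 3 (14.36), where H2-Aa, H2-Ab1, H2-Eb1, Cd74 and H2-DMb1 were also highest. Against the list, the members had r between -0.31 and -0.095 over the 24 arrays. The part of smooth muscle in the class II differences was not tested. Des and Cnn1 were also counted as lower in F(OVX) + LFD than in F + LFD, at -1.17 ± 0.52 SE and -1.05 ± 0.45 SE, and Cnn1 as higher on HFD in the average over M, F and F(OVX), at 0.59 ± 0.26 SE. In the difference between the diet effects of M and F(OVX), Cdx2 (-2.93 ± 1.25 SE, 1 of 10 epithelial genes) and Kit (-0.96 ± 0.38 SE), a receptor of innate lymphoid and mast cells, were counted. That difference also includes the M + LFD arrays with little Hoxb13. Kit was 1 of 4 genes tested of group 3 innate lymphoid cells, and the other 3 went the other way. In F, 0 genes of the 7 cell type lists (B, dendritic and T cells, macrophages, group 3 innate lymphoid cells, epithelium and smooth muscle) were counted.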

How the data were processed

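Per the labels, 24 colon samples in 6 groups of 4 were analyzed. The methods name 5 animals per group. The authors scanned each 1-color array and deposited spot intensities from Agilent Feature Extraction 11.0.1.1, with background subtracted and no normalization between arrays. The deposited flags (0 or 1 for each spot) mark spots well above background and outliers. No spot of a member was saturated or an outlier.

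The processed intensity was log2-transformed without control and outlier spots and quantile-normalized over 24 arrays. Accessions gave 32994 of 56605 probes (58.3%) a symbol through a RefSeq table (GRCm38.p6). A gene was its brightest probe, and was tested where either of the groups compared had it above background on each of its 4 arrays. Diet comparisons were fitted on their own 8 arrays, other contrasts on 24, with limma 3.58.1 in R 4.3.3, and 2-sided exact permutations over arrays in Python 3.11.15. The routines were tested on simulated data. Nothing says that the arrays of a group came from separate cages, so p-values measure the spread between these samples, and precision is limited by the number of arrays. Named genes are the members, the called genes of each list (up to 6 per comparison) and those most like H2-Ab1. The values of some listed genes are not reported here. Members, gene lists and alternatives were chosen with earlier results of these data known. Alternatives were another scaling, background correction, filter and probe rule, the methods' t-test, the replicate block, a joint fit and arrays left out.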

Additional observations from a re-analysis of the deposited data

Results flagged for a closer look

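Among the 54 sets of 4 arrays (9 members in 6 groups), 5 had an array far from the other 3 by Dixon's test, which flags about 1 in 20 such sets by chance. On F(OVX) + LFD replicate 3 H2-Aa was 12.11, H2-DMa 10.14 and H2-DMb1 12.15, each above the other arrays of its group, and this is the array with the fewest probes well above background (40.5%). On M + HFD replicate 2 Cd74 was 13.64 and H2-DMa 9.0, again above the rest of the group. The part of the signal level of these arrays in the values was not tested. No difference between diet effects was flagged for a member.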

How the results depend on the processing

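Each diet difference was recomputed under every alternative and with each array left out. Among the values of single members, 679 kept their direction and their side of the threshold, 14 came to be counted as changed, 6 ceased to be and 30 changed sign. In M, the number of members counted as lower on HFD went from 1 to 0 with normexp background correction (H2-DMa -0.55, fold under 1.5) and to 0 with 1 fit of all 24 arrays (H2-DMa at an unadjusted p of 0.0960, limma), and it was 0 to 1 when single arrays were left out. Without M + LFD replicates 1 and 2, the count was 4 in M and 1 in the average over M, F and F(OVX), and H2-Oa and H2-Ob turned to -0.25 and -0.31 in M and to -0.20 and -0.20 in the average. Of all genes, 868 in M and 286 in the average were counted in either direction in those fits. Leaving out single arrays gave counts of 0 to 4 in F(OVX), 0 to 2 in the average and 0 to 3 for M against F on LFD. The differences that changed sign then ranged from -0.34 to 0.0064 (H2-Aa) and -0.59 to 0.091 (Ciita) in M. In F they ranged from -0.42 to 0.72 (H2-Oa), -0.41 to 1.03 (H2-Ob) and -0.86 to 0.099 (Ciita). In F(OVX) the ranges were -0.95 to 0.24, -0.98 to 0.31 and -0.70 to 0.15 for the same genes, and in the average -0.16 to 0.26 for H2-Oa and -0.020 to 0.49 for H2-Ob. The cause was not tested. With single arrays left out, the median over the members lay between -0.50 and -0.064 in M, -0.74 and -0.14 in F and -0.82 and -0.12 in F(OVX).

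With the replicate block, no number of members counted as changed moved, and H2-DMa in M kept its call (unadjusted p 0.0244, limma). Genes counted in F rose from 264 to 587. Same-numbered arrays in M had r = -0.26 to 0.01. In F(OVX) r was 0.33, 0.32 and 0.25 for replicates 1, 3 and 4 but -0.089 for replicate 2, so the numbers were not taken as pairs there, since each pair had to exceed 0.1.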
